A study of Mus musculus with 8 samples.

Results

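The 9 genes described here mark effector and regulatory T cells in mouse lung: the transcription factors Gata3, Tbx21 and Foxp3, the receptors Icos, Ctla4, Pdcd1, Tnfrsf4 and Il2ra, and the chemokine receptor Ccr4. They were taken by name from a table of 23469 genes, with earlier results of these data known, and all 9 were found in it. Lung RNA was compared between C57BL/6 wild type (WT) mice and DDAH1-transgenic (TG) mice, each given phosphate-buffered saline (PBS) or extract of house dust mite (HDM), an airway allergen. Over 3 weeks, with 3 doses a week, the HDM groups had 100 µg of the extract instilled into the trachea in a volume of 50 µl, the PBS groups had the vehicle alone, and lungs were taken 24 hours after the last dose. Each of the 4 groups was 1 pool of RNA from 4 mice, sequenced as 2 libraries, so that an SD or p-value below measures the spread between 2 libraries of a pool and not between mice. DDAH1 is the enzyme that degrades asymmetric dimethylarginine, an inhibitor of nitric oxide synthesis. The age of the mice and the promoter of the transgene are not given in the sources used here.

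Naive T cells that meet antigen become effector cells of several kinds, each set by a master transcription factor: Gata3 for type 2 helper (Th2) cells, Tbx21 (T-bet) for type 1 helper (Th1) cells and Foxp3 for regulatory T cells. Activated and regulatory T cells share a set of surface receptors. Icos and Tnfrsf4 (OX40) give costimulatory signals, Ctla4 and Pdcd1 (PD-1) restrain the cell, Il2ra (CD25) makes the receptor for interleukin 2 one of high affinity, and Ccr4 guides Th2 and regulatory T cells to the chemokines Ccl17 and Ccl22. In allergic lung, Th2 cells drive eosinophilia and mucus, and regulatory T cells hold them in check. Gata3 is also active in group 2 innate lymphoid cells and in some epithelial cells.

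The libraries held 5694928 to 11929374 counts, the smallest being replicate 1 of HDM-treated TG mice. Levels are in CPM, a gene's counts scaled to the size of its library with the TMM factors of edgeR over all 8 libraries, and 1 count was worth 0.0774 to 0.150 CPM. All 7 markers of lung epithelium and endothelium were detected in every library. The targeted gene, Ddah1, stood at 34.3 and 47.7 CPM in PBS-treated WT mice and at 53.8 and 76.9 CPM in PBS-treated TG mice, but at 43.1 and 44.7 CPM in HDM-treated WT mice and at 33.4 and 34.9 CPM in HDM-treated TG mice. A higher level of Ddah1 was thus not seen in the libraries labelled as HDM-treated TG mice. Reads were counted over the mouse gene, and the sequence of the transgene is not given in the sources used here. These counts therefore cannot show whether the transgene was expressed, and the genotypes below are those of the labels. Xist, which is transcribed in female cells, lay between 11.3 and 20.8 CPM in the PBS libraries and between 2048 and 3040 CPM in the HDM libraries, and the Y-linked gene Ddx3y lay between 58.7 and 69.0 CPM in the former but was limited to 2 or 3 counts in the latter. Every difference between HDM and PBS below therefore cannot be told apart from one between the sexes of the pools. Rag1, the recombinase of developing lymphocytes, had 189 and 371 counts in PBS-treated WT mice and 0 to 7 counts in each other library. The summed level of 8 thymocyte markers was 83.2 and 92.3 CPM in PBS-treated WT mice against 22.1 to 31.4 CPM elsewhere, and its part in the differences from that group was not tested.

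The 9 genes were of low abundance. Since reads were counted in coding regions, genes were set side by side per kilobase of coding sequence, as the mean of the 8 libraries. On that scale Icos and Il2ra were the most abundant, at 22.8 and 22.5 CPM per coding kilobase. They were followed by Ctla4 at 12.5, Gata3 at 6.58, Ccr4 at 5.55 and Foxp3 at 5.54 CPM per coding kilobase. Tnfrsf4 at 2.55, Pdcd1 at 2.18 and Tbx21 at 1.77 CPM per coding kilobase came last. Between groups the genes fell into 3 patterns. Ctla4, Icos, Pdcd1 and Ccr4 had all 4 HDM libraries above all 4 PBS libraries, a separation upwards that was met by 8.99% of 15868 genes tested over the 8 libraries. Pdcd1 passed the filter on low counts only through HDM libraries, so part of its separation was fixed by that filter. Its lowest HDM library had 5 counts and its highest PBS library 4. Il2ra was highest in HDM-treated WT mice alone. Gata3, Tbx21, Foxp3 and Tnfrsf4 had HDM libraries among the PBS libraries.

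**Figure D1:**
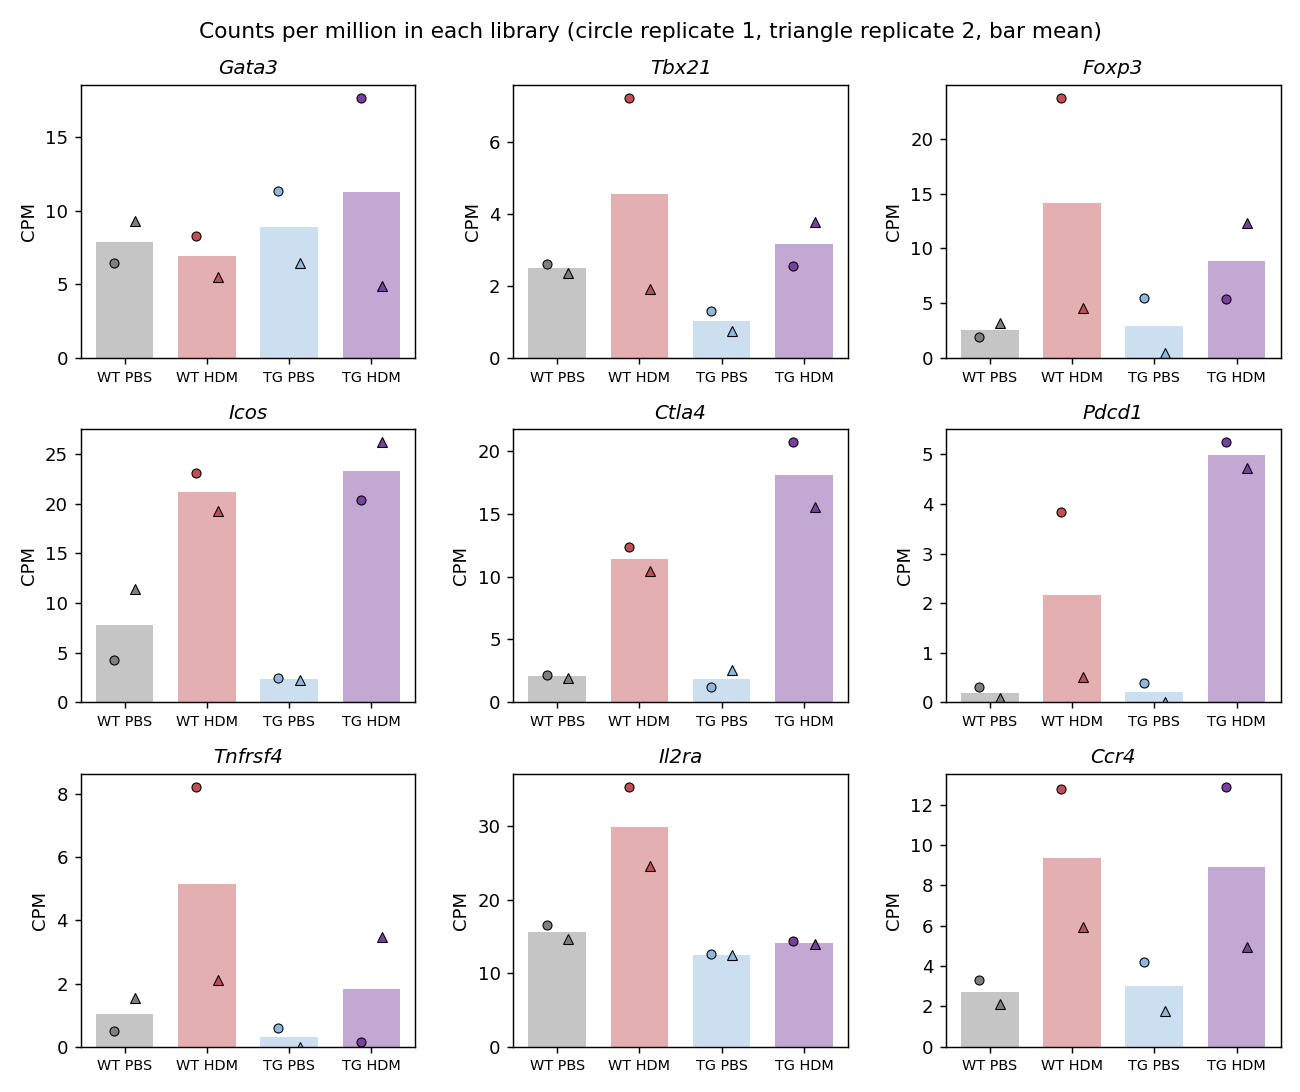
Levels in CPM of the 9 genes (y axis, linear, a scale of its own for each gene) in each library of the 4 groups (x axis), with circles for replicate 1, triangles for replicate 2 and bars for the mean of both. Ctla4, Icos, Pdcd1 and Ccr4 stand higher in every HDM library than in any PBS library, while the 2 libraries of HDM-treated wild type mice lie far apart for Foxp3, Tnfrsf4, Tbx21 and Pdcd1.

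Set side by side, the 9 genes gave 1 call with HDM in WT mice and 3 in TG mice, all of them higher. In WT mice, 8 of the 9 genes passed the filter on low counts and 1 of these (Ctla4) passed the threshold, against 4.44% of 15123 genes called higher and 6.74% called in either direction. A further 5 had an unadjusted p under 0.05 (Foxp3, Icos, Il2ra, Tnfrsf4 and Ccr4), and their fitted changes were all upwards. In TG mice, 8 of the 9 passed the filter and 3 (Icos, Ctla4 and Pdcd1) were called, against 8.43% of 15086 genes called higher and 13.8% in either direction. The median log2 fold change of the genes tested was 1.61 in WT mice and 1.62 in TG mice, beside medians of 0.02 and 0.03 over all genes tested. A gene that passed the filter only through its HDM libraries had to be higher there. Pdcd1 in TG mice, with 4 and 0 counts in the PBS libraries, was such a gene. In bulk lung, more T cells and more RNA of a gene per T cell cannot be told apart. Leaving out 1 library changed the number of calls in WT mice from 0 (without replicate 1 of the PBS group) to 6 (without replicate 2 of the HDM group), and in TG mice it fell to 1 without replicate 1 of the PBS group.

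**Figure D2:**
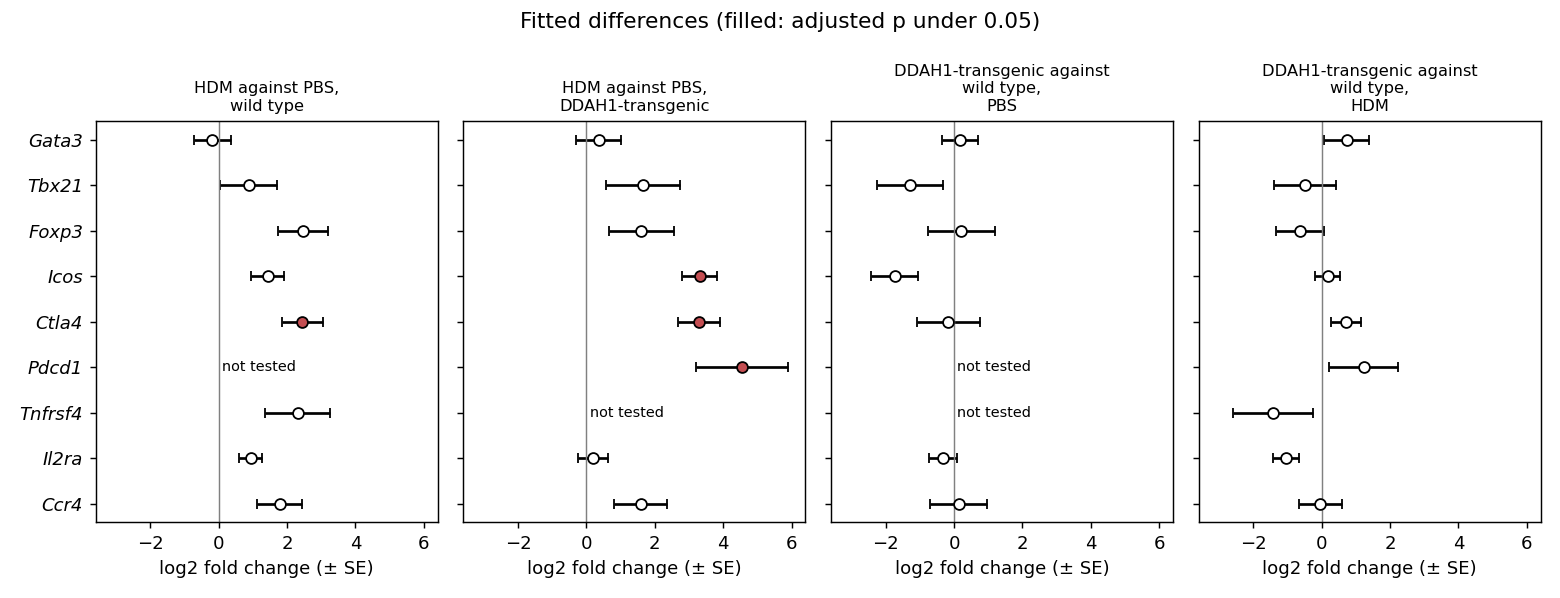
Log2 fold changes with standard errors (x axis) of the 9 genes (y axis) in the comparisons of HDM with PBS within each genotype and of TG with WT mice within each treatment, from edgeR. Filled points had an adjusted p under 0.05: Ctla4 in wild type mice, and Icos, Ctla4 and Pdcd1 in DDAH1-transgenic mice, with none in the comparisons of genotype.

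Gata3, the factor of Th2 cells, was detected in every library, and its HDM and PBS libraries overlapped in both genotypes. Its levels were 6.43 and 9.31 CPM in PBS-treated WT mice, 8.31 and 5.52 CPM in HDM-treated WT mice, 11.4 and 6.45 CPM in PBS-treated TG mice, and 17.7 and 4.88 CPM in HDM-treated TG mice. The highest and the lowest of the 8 values were the 2 libraries of one pool, HDM-treated TG mice, so that all 4 groups overlapped. The log2 fold change with HDM was -0.19 (SE 0.55) in WT mice and 0.36 (SE 0.65) in TG mice, with adjusted p-values of 0.900 and 0.778 in edgeR's quasi-likelihood test.

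Tbx21, the factor of Th1 cells, had the lowest level per coding length of the set. It lay at 2.61 and 2.37 CPM in PBS-treated WT mice, 7.24 and 1.91 CPM in HDM-treated WT mice, 1.30 and 0.740 CPM in PBS-treated TG mice, and 2.55 and 3.79 CPM in HDM-treated TG mice. Both PBS-treated TG libraries were lower than the other 6, and the 2 libraries of HDM-treated WT mice held the highest and the third lowest value. The HDM difference was 0.88 (SE 0.83) on the log2 scale in WT mice and 1.65 (SE 1.09) in TG mice, with adjusted p-values of 0.626 and 0.363 (edgeR). Without replicate 1 of HDM-treated WT mice the first of these was -0.38. Natural killer cells also express Tbx21, and the sum of 6 of their markers, all detected in every library, was 16.3 to 31.8 CPM in the PBS libraries and 31.0 to 42.6 CPM in the HDM libraries.

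Foxp3, the factor of regulatory T cells, lies on the X chromosome (X, 7579676 to 7595243, plus strand, GRCm38). It was at 1.91 and 3.18 CPM in PBS-treated WT mice and at 23.8 and 4.52 CPM in HDM-treated WT mice. In TG mice it was at 5.49 and 0.423 CPM with PBS and at 5.39 and 12.3 CPM with HDM. In WT mice both HDM libraries exceeded both PBS libraries, but replicate 1 held 266 counts and replicate 2 only 45. In TG mice the PBS and HDM libraries overlapped. The log2 fold change with HDM was 2.46 (SE 0.72, adjusted p = 0.0571) in WT mice and 1.60 (SE 0.95, adjusted p = 0.307) in TG mice by edgeR's quasi-likelihood test, and neither passed the threshold of 0.05. In WT mice the call turned with the settings: the adjusted p was 0.0155 with DESeq2, 1.79e-06 without replicate 2 of HDM-treated WT mice and 0.678 without replicate 1 of that group, where the log2 fold change was 0.82. Foxp3 overlaps Flicr and Ccdc22 in the genome, and 13.9% of the 50-base stretches of its transcript also occur in transcripts of other genes, these 2 included. Ccdc22 had 35 and 3 counts in PBS-treated TG mice and 19 and 108 counts in HDM-treated TG mice, against 55 and 4, and 36 and 159, counts of Foxp3 in the same libraries. In WT mice Ccdc22 had 38 and 25 counts with PBS and 53 and 28 with HDM. Foxp3 had 19 and 39, and 266 and 45, counts there. The strand of the reads is not given in the sources used here, so reads of the 2 genes cannot be told apart where they overlap.

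Icos and Ctla4 belong to the CD28 family of receptors and are neighbours on chromosome 1. On GRCm38, Cd28 ends at 60773359, Ctla4 extends from 60909025 to 60915832 and Icos from 60960773 to 61000322, all on the plus strand, with 135665 bases between Cd28 and Ctla4 and 44940 bases between Ctla4 and Icos. The transcript model of Ctla4 has 4 exons and that of Icos 5. No 50-base stretch of either transcript occurs in a transcript of another gene.

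Icos, a costimulatory receptor of activated and follicular helper T cells, was higher with HDM in both genotypes and called in TG mice. Its levels were 4.22 and 11.4 CPM in PBS-treated WT mice, 23.1 and 19.3 CPM in HDM-treated WT mice, 2.49 and 2.22 CPM in PBS-treated TG mice, and 20.4 and 26.2 CPM in HDM-treated TG mice. The HDM groups overlapped each other, and both lay above the PBS groups, of which the TG group was the lower. In TG mice Icos rose by a log2 fold change of 3.32 (SE 0.51, adjusted p = 0.00152, edgeR), and the call stood in each alternative that was run. In WT mice the difference of 1.43 (SE 0.48) gave an adjusted p of 0.0970 in the same test. That value fell to 0.0195 without replicate 2 of PBS-treated WT mice, the library at 11.4 CPM, and to 0.0227 without replicate 2 of HDM-treated WT mice. With no filter on low counts it was 0.0206.

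Ctla4, an inhibitory receptor of activated T cells that regulatory T cells carry constantly, was the only one of the 9 genes to pass the threshold in both genotypes. It was at 2.21 and 1.96 CPM in PBS-treated WT mice, 12.3 and 10.4 CPM in HDM-treated WT mice, 1.20 and 2.54 CPM in PBS-treated TG mice, and 20.7 and 15.6 CPM in HDM-treated TG mice. The 2 PBS groups overlapped, the HDM groups stood apart from them and from each other, and the TG group was the higher with HDM. By edgeR's quasi-likelihood test Ctla4 rose by a log2 fold change of 2.44 (SE 0.59, adjusted p = 0.0234) in WT mice and of 3.30 (SE 0.61, adjusted p = 0.00437) in TG mice. With 1 library left out the log2 fold change lay between 2.32 and 2.54 in WT mice, but the call was lost without replicate 1 (2.53, adjusted p = 0.0602) or replicate 2 (2.35, adjusted p = 0.111) of PBS-treated WT mice. In TG mice it lay between 2.84 without replicate 1 of PBS-treated mice, where the call was lost (adjusted p = 0.0646), and 3.92 without replicate 2 of that group.

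Pdcd1 encodes PD-1, a receptor that dampens T cells after repeated stimulation. It had 3 and 1 counts in PBS-treated WT mice, 43 and 5 counts in HDM-treated WT mice, 4 and 0 counts in PBS-treated TG mice, and 35 and 61 counts in HDM-treated TG mice. The gene was thus near or under the floor of 3 counts in all 4 PBS libraries, and only HDM-treated TG mice had both libraries clearly above it, at 5.24 and 4.72 CPM. In TG mice the log2 fold change with HDM was 4.56 (SE 1.35, adjusted p = 0.0429, edgeR). Its size rests on the 4 counts of the PBS group, lay between 3.62 and 8.61 when 1 library was left out, and passed the threshold in none of these 4 fits (lowest adjusted p = 0.0550). It also missed the threshold with an offset for transcript length (adjusted p = 0.0695). In WT mice the gene did not pass the filter on low counts. There the mean was 2.17 ± 2.36 CPM (SD, n = 2) with HDM and 0.192 ± 0.155 CPM (SD, n = 2) with PBS, and replicate 2 of the HDM group, at 5 counts, was barely above the 4 counts of the highest PBS library.

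Tnfrsf4 encodes the costimulatory receptor OX40 of activated T cells. Its counts were 5 and 19 in PBS-treated WT mice, 92 and 21 in HDM-treated WT mice, 6 and 0 in PBS-treated TG mice, and 1 and 45 in HDM-treated TG mice. The replicates of every group differed severalfold and HDM-treated TG mice held both a library at 1 count and one at 45. The log2 fold change with HDM in WT mice was 2.30 (SE 0.96, adjusted p = 0.195, edgeR), and the adjusted p was 0.0202 without replicate 2 of HDM-treated WT mice. In TG mice Tnfrsf4 did not pass the filter on low counts. It overlaps the more abundant gene Sdf4, which had 797 to 1811 counts per library.

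Il2ra, the alpha chain of the interleukin 2 receptor, had its highest levels in 1 group. It was at 16.6 and 14.7 CPM in PBS-treated WT mice, 35.4 and 24.6 CPM in HDM-treated WT mice, 12.7 and 12.5 CPM in PBS-treated TG mice, and 14.4 and 13.9 CPM in HDM-treated TG mice. Both libraries of HDM-treated WT mice were above the other 6, which spanned only 12.5 to 16.6 CPM. With HDM the log2 fold change was 0.94 (SE 0.34, adjusted p = 0.125) in WT mice and 0.19 (SE 0.45, adjusted p = 0.830) in TG mice by edgeR's quasi-likelihood test. The first passed the threshold without replicate 2 of HDM-treated WT mice (1.16, adjusted p = 0.0400). The other chains of the receptor, which are also shared with other cytokine receptors, are given for comparison. Il2rb, the beta chain, rose in WT mice by 2.29 (SE 0.29, adjusted p = 0.000181, edgeR) and was 1.13 (SE 0.46, adjusted p = 0.129) in TG mice. Il2rg, the common gamma chain, rose in both, by 1.28 (adjusted p = 0.00127, edgeR) and by 1.02 (adjusted p = 0.0299). The call of Il2rg in TG mice was lost without any one of 3 libraries (TG PBS replicate 1 or 2, TG HDM replicate 1), with adjusted p-values up to 0.285, and with an offset for transcript length (0.61, adjusted p = 0.197). Il2, the ligand, had 0 to 4 counts per library.

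Ccr4, the receptor for Ccl17 and Ccl22, was at 3.32 and 2.12 CPM in PBS-treated WT mice, 12.8 and 5.93 CPM in HDM-treated WT mice, 4.19 and 1.80 CPM in PBS-treated TG mice, and 12.9 and 4.96 CPM in HDM-treated TG mice. The HDM libraries of both genotypes lay above all PBS libraries, with replicate 1 above replicate 2 by more than 2 times in both HDM groups. The log2 fold change with HDM was 1.78 (SE 0.65, adjusted p = 0.136) in WT mice and 1.59 (SE 0.77, adjusted p = 0.206) in TG mice by edgeR's quasi-likelihood test. Without replicate 2 of HDM-treated WT mice the adjusted p in WT mice was 0.0174.

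To place the genes that separated the HDM from the PBS libraries, their promoters were read from RefSeq sequences of GRCm38.p6. A promoter was found for 8 of the 9 genes, and the sequences used held no entry for Icos. The 250 bases before the start are shown 5′ to 3′ for the other 3 genes of that pattern: Ctla4 at chr1:60908775-60909024 (plus strand), Pdcd1 at chr1:94052554-94052803 (minus strand) and Ccr4 at chr9:114496545-114496794 (minus strand). The Ccr4 window precedes a transcript that starts inside the span of the RefSeq gene. Capitals mark matches on either strand to 4 motifs. The first was GGAAAA, the core of the sites bound by NFAT, a factor of T cell activation, which reads TTTTCC on the opposite strand. The second was the AP-1 motif TGANTCA. The third was AGATAA, bound by the GATA family to which Gata3 belongs. The last was GGTGTGA, bound by the T-box family to which Tbx21 belongs. The 4 motifs do not contain one another.
Ctla4: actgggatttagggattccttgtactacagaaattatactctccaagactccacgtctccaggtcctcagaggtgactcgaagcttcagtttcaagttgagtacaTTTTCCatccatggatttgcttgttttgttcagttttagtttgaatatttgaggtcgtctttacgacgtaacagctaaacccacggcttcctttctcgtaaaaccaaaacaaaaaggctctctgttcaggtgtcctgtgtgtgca
Pdcd1: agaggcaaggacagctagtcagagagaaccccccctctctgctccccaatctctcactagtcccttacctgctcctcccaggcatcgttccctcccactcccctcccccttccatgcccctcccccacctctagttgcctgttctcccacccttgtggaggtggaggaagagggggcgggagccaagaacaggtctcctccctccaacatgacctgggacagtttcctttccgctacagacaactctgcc
Ccr4: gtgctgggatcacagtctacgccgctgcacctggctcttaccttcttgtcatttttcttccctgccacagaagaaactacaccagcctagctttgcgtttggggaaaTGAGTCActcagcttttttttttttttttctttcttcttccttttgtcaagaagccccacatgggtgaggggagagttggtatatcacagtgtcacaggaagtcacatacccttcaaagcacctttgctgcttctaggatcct
Ctla4 held 1 NFAT match, beginning 145 bases before the start, and Ccr4 held 1 AP-1 match, beginning 143 bases before the start. The Pdcd1 window held none of the 4 motifs and was the richest in G and C of the 3, at 60.4% against 42.4% for Ctla4 and 46.4% for Ccr4. Of 32851 RefSeq windows of the same length, 20.4% held the NFAT motif, 6.75% the AP-1 motif, 9.99% the GATA motif and 3.33% the T-box motif. These matches are of letters in the window and not of bound sites.

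The comparison of the libraries labelled TG with those labelled WT asked whether the transgene went with a difference in these genes. With PBS, 7 of the 9 genes were tested and 0 were called, against 0.657% of 14926 genes by edgeR, and 1 (Icos) had an unadjusted p under 0.05. DESeq2 also called 0 of the 9, and 223 genes in all. Icos was lower in both TG libraries than in both WT libraries (-1.74, SE 0.70, adjusted p = 0.382, edgeR). Tbx21 was likewise lower in both TG libraries, by a fitted -1.29 (SE 0.96, adjusted p = 0.721). The other 5 fitted differences lay between -0.33 for Il2ra and 0.21 for Foxp3.

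With HDM, all 9 genes were tested and 0 were called, against 2.44% of 15191 genes by edgeR. DESeq2 again called 0 of the 9, and 890 genes in all. Il2ra was the 1 gene with an unadjusted p under 0.05. It was lower in both libraries of HDM-treated TG mice (14.4 and 13.9 CPM) than in both of HDM-treated WT mice (35.4 and 24.6 CPM), with a log2 difference of -1.05 (SE 0.38, adjusted p = 0.197, edgeR). Ctla4 was higher in both TG libraries (0.71, SE 0.44, adjusted p = 0.461), and so was Pdcd1 (1.22, SE 1.02, adjusted p = 0.604). For Icos and Ccr4 the fitted differences were 0.17 (SE 0.37) and -0.04 (SE 0.64). Tnfrsf4 was called lower (-4.94, adjusted p = 0.0424) only when the TG library with 45 counts, replicate 2, was left out.

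The interaction of genotype and treatment, fitted on all 8 libraries, tested whether the HDM difference itself differed between the genotypes. Again 0 of the 9 genes were called by edgeR's quasi-likelihood test, against 1.76% of 15868 genes, and 0 by DESeq2, which called 680 genes in all. Icos had an unadjusted p of 0.0153 (1.87, SE 0.70, adjusted p = 0.207), being the 1 gene under 0.05. That Icos passed the threshold in TG mice and not in WT mice was therefore not shown to be a difference between them. For Ctla4 the interaction was 0.83 (SE 0.80, adjusted p = 0.692) and for Il2ra -0.77 (SE 0.53, adjusted p = 0.547).

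Apart from Il2, the ligands of these receptors are made mostly by dendritic cells, macrophages and epithelium. Of 9 ligands, 7 were tested with HDM in each genotype, of which 3 rose in WT mice and 2 rose in TG mice, where 4.44% and 8.43% of all genes were called higher. Ccl17, a ligand of Ccr4, was at 2.61 and 3.43 CPM in PBS-treated WT mice, 51.0 and 39.7 CPM in HDM-treated WT mice, 9.98 and 13.8 CPM in PBS-treated TG mice, and 11.4 and 20.8 CPM in HDM-treated TG mice. Ccl22, the other ligand of Ccr4, was at 8.44 and 5.14 CPM, 47.9 and 53.9 CPM, 10.7 and 14.5 CPM, and 11.1 and 17.0 CPM in the same order. For both, HDM-treated WT mice stood far above the 3 other groups, and the 2 TG groups overlapped.

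In WT mice Ccl17 rose by 3.90 (SE 0.37, adjusted p = 1.34e-05) and Ccl22 by 2.91 (SE 0.34, adjusted p = 9.27e-05) on the log2 scale in edgeR's quasi-likelihood test. In TG mice the differences were 0.46 (SE 0.48, adjusted p = 0.593) and 0.18 (SE 0.47, adjusted p = 0.854). The interaction was called for both, at -3.45 (SE 0.59, adjusted p = 0.00345) for Ccl17 and -2.74 (SE 0.55, adjusted p = 0.0119) for Ccl22. The second was lost without replicate 2 of PBS-treated WT mice or replicate 2 of PBS-treated TG mice, with adjusted p-values up to 0.0806. The receptor Ccr4 itself had an interaction of -0.23 (SE 1.00, adjusted p = 0.953). Between the HDM groups Ccl22 was lower in TG mice by edgeR (-1.82, SE 0.34, adjusted p = 0.0182), a call lost without either WT library (adjusted p up to 0.273), while Ccl17 gave -1.45 (SE 0.37, adjusted p = 0.0707).

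**Figure D3:**
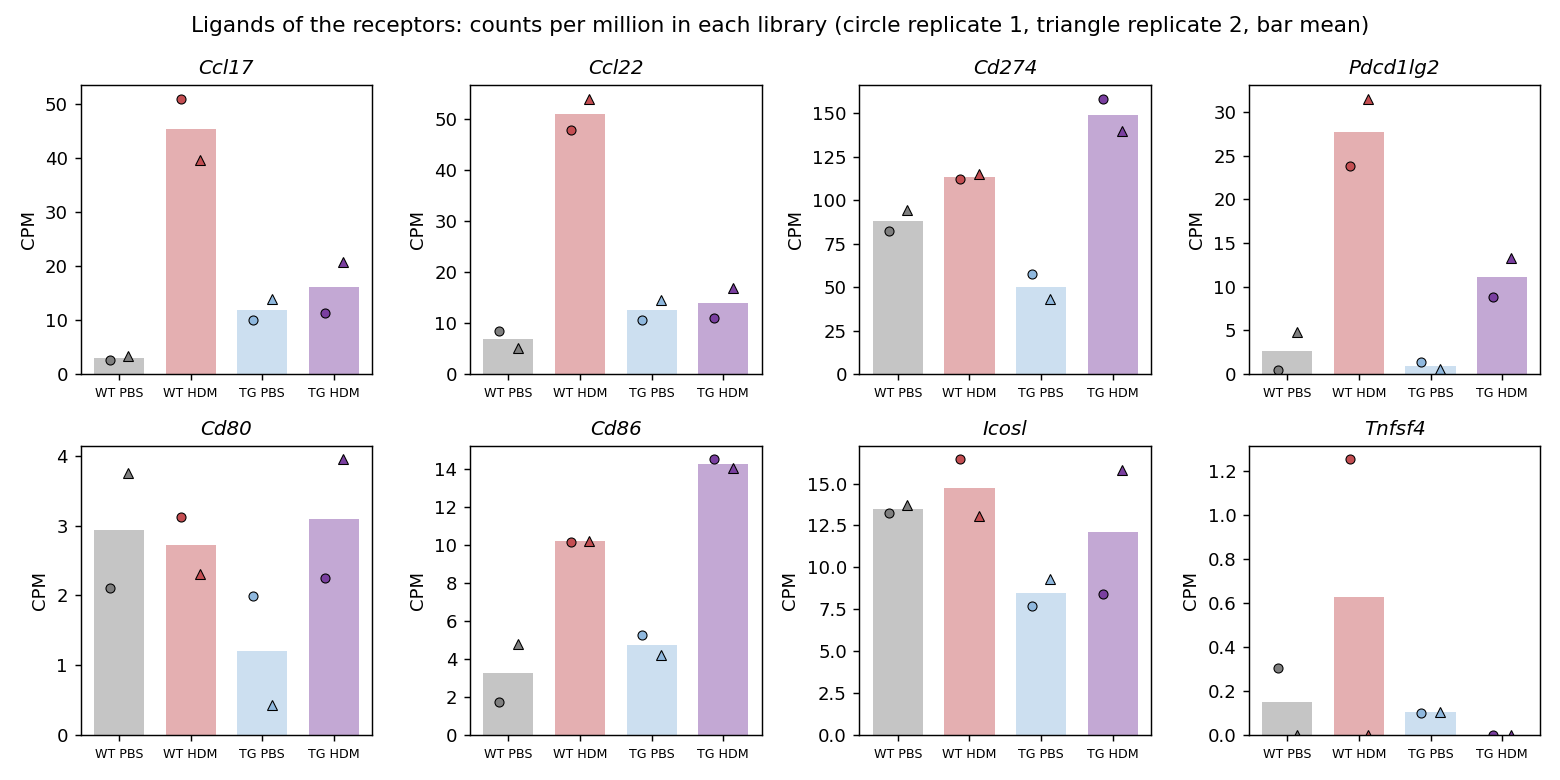
Levels in CPM of 8 ligands (y axis, linear, a scale of its own for each gene) in each library of the 4 groups (x axis), with circles for replicate 1, triangles for replicate 2 and bars for the mean. Ccl17 and Ccl22, the ligands of Ccr4, are high in HDM-treated wild type mice alone, whereas Pdcd1lg2 and Cd86 are higher in both HDM groups than in the PBS groups.

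PD-1 has the ligands Cd274 (PD-L1) and Pdcd1lg2 (PD-L2). Pdcd1lg2 was at 0.502 and 4.82 CPM in PBS-treated WT mice, 23.9 and 31.5 CPM in HDM-treated WT mice, 1.40 and 0.528 CPM in PBS-treated TG mice, and 8.83 and 13.3 CPM in HDM-treated TG mice. It rose with HDM in both genotypes, by 3.34 (SE 0.67, adjusted p = 0.00725) in WT mice and 3.52 (SE 0.79, adjusted p = 0.0119) in TG mice by edgeR's quasi-likelihood test. The call in WT mice was lost with DESeq2 (adjusted p = 0.0881) and that in TG mice without either PBS library (adjusted p up to 0.113). Cd274 was far more abundant. It was at 82.5 and 94.0 CPM in PBS-treated WT mice, 112 and 115 CPM in HDM-treated WT mice, 57.7 and 42.9 CPM in PBS-treated TG mice, and 158 and 140 CPM in HDM-treated TG mice. It rose in TG mice by 1.59 (SE 0.24, adjusted p = 0.00148, edgeR), a call lost without replicate 2 of the PBS group (adjusted p = 0.0852), against 0.36 (SE 0.17, adjusted p = 0.264) in WT mice. The interaction of 1.20 (SE 0.29) had an adjusted p of 0.0412 in the same test. That call was lost without any one library other than replicate 1 of PBS-treated and replicate 2 of HDM-treated TG mice (adjusted p up to 0.197), and with an offset for transcript length (adjusted p = 0.0525).

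Cd86, a ligand of Ctla4 and Cd28, was at 1.71 and 4.82 CPM in PBS-treated WT mice, 10.2 CPM in both HDM-treated WT libraries, 5.29 and 4.23 CPM in PBS-treated TG mice, and 14.5 and 14.1 CPM in HDM-treated TG mice. All HDM libraries exceeded all PBS libraries, with log2 fold changes of 1.63 (SE 0.63, adjusted p = 0.159) and 1.61 (SE 0.53, adjusted p = 0.0675) by edgeR's quasi-likelihood test. For Cd80, the second ligand of Ctla4 and Cd28, and Icosl, the ligand of Icos, no comparison was called. Cd80 was at 2.00 and 0.423 CPM in PBS-treated TG mice, below the 2.11 to 3.95 CPM of the other 6 libraries. Icosl was at 7.68 and 9.30 CPM in PBS-treated TG mice, below the 13.1 to 16.4 CPM of the 4 WT libraries, and at 8.39 and 15.8 CPM in HDM-treated TG mice. Tnfsf4, the ligand of OX40, had 0 to 14 counts per library and was not tested. The summed level of 6 dendritic cell markers, all detected in every library, was 257 to 296 CPM in the PBS libraries and 208 to 263 CPM in the HDM libraries. Most of this sum was Xcr1, at 209 to 257 CPM with PBS and 126 to 208 CPM with HDM. By fitted change with HDM, 3 of the 6 were higher and 3 lower in WT mice. In TG mice 4 were higher and 2 lower. The part of dendritic cells in the ligand results was not tested.

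T cells as a whole were followed by 15 genes of the T cell receptor and its signalling, such as Cd3e, Lck and Cd28. Their summed level was 121 and 131 CPM in PBS-treated WT mice, 177 and 185 CPM in HDM-treated WT mice, 72.0 and 75.1 CPM in PBS-treated TG mice, and 241 and 201 CPM in HDM-treated TG mice. The groups did not overlap in this sum, and the HDM groups were the higher. The 9 genes summed to 38.1 and 46.7, 135 and 74.8, 39.7 and 26.6, and 99.3 and 89.8 CPM in the same order. With HDM, 1 of the 14 T cell genes tested was called in WT mice. Over all genes, 4.44% were called higher there and 6.74% in either direction. The 1 gene was Cd2, a coreceptor that binds CD48, with 1.70 (SE 0.43, adjusted p = 0.0304, edgeR). In TG mice 8 of 14 rose (Lck, Cd28, Cd6, Cd5, Cd4, Cd2, Lat and Cd3g) and 0 fell. Over all genes, 8.43% were called higher there and 13.8% in either direction. Among the 8 were the kinase Lck by 3.20 (SE 0.60, adjusted p = 0.00478) and the costimulatory receptor Cd28 by 2.52 (SE 0.48, adjusted p = 0.00504). Cd6, with 6 and 3 counts in PBS-treated TG mice, passed the filter on low counts only through HDM libraries and had to be higher there. Only 1 gene of the list was called without replicate 1, and 2 without replicate 2, of PBS-treated TG mice, and 4 were called with an offset for transcript length. The call of Cd2 in WT mice was lost without replicate 2 of either group (adjusted p up to 0.155) and with that offset (adjusted p = 0.0559). In TG mice the call of Lck was lost without replicate 2 (adjusted p = 0.0745) and that of Cd28 without replicate 1 (adjusted p = 0.0912) of the PBS group. With PBS, Cd4, the coreceptor of helper T cells, was lower in the libraries labelled TG (-1.92, SE 0.37, adjusted p = 0.0177, edgeR), at 7.98 and 7.08 CPM against 28.8 and 27.8 CPM. That call was lost without either WT library (adjusted p up to 0.137), and these WT libraries are those with Rag1 and the high thymocyte sum. The markers of B cells, another lymphocyte, moved with the allergen as well: their sum was 117 and 150 CPM in PBS-treated WT mice, 422 and 373 CPM in HDM-treated WT mice, 70.6 and 60.5 CPM in PBS-treated TG mice, and 304 and 471 CPM in HDM-treated TG mice, and its part in the results was not tested.

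**Figure D4:**
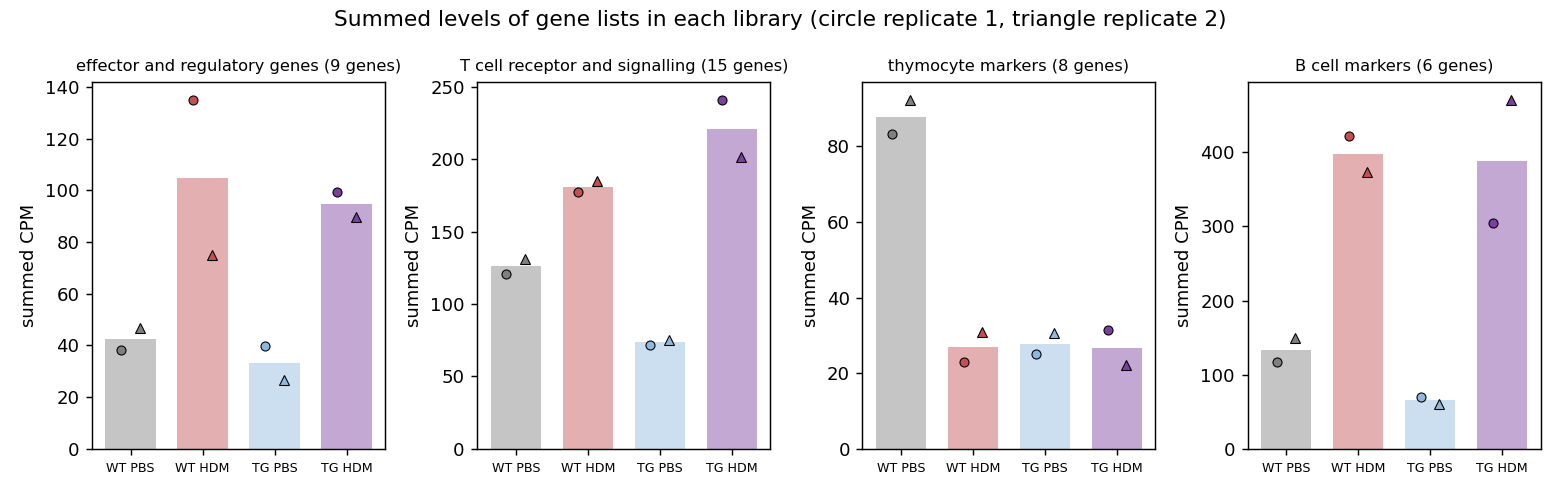
Summed CPM (y axis, linear) of the 9 genes, of 15 T cell genes, of 8 thymocyte markers and of 6 B cell markers in each library of the 4 groups (x axis), with circles for replicate 1, triangles for replicate 2 and bars for the mean. The T cell, B cell and effector sums are higher in the HDM libraries, and the thymocyte sum is high in PBS-treated wild type mice alone.

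Against this T cell signal the 9 genes did not move alike. Ctla4 had 18.3 and 14.9 counts per 1000 counts of the T cell genes in PBS-treated WT mice, 69.5 and 56.6 in HDM-treated WT mice, 16.6 and 33.8 in PBS-treated TG mice, and 85.8 and 77.3 in HDM-treated TG mice. It was thus higher relative to the T cell genes in each HDM library than in any PBS library. Icos had 35.0 and 87.1, 130 and 104, 34.7 and 29.5, and 84.5 and 130 counts per 1000 in the same order, so that within each genotype both HDM libraries were above both PBS libraries. For Il2ra the order turned in TG mice. Il2ra had 137 and 112 counts per 1000 in PBS-treated WT mice, 199 and 133 in HDM-treated WT mice, 176 and 166 in PBS-treated TG mice, but 59.7 and 69.3 in HDM-treated TG mice, the lowest of all libraries. Relative to the 4 genes of the CD3 complex alone (Cd3d, Cd3e, Cd3g and Cd247), Il2ra was likewise lowest in HDM-treated TG mice, at 164 and 255 counts per 1000 against 359 to 594 in the other 6 libraries. Gata3 per 1000 was highest in PBS-treated TG mice, at 158 and 85.8, and Ccr4, Tbx21 and Foxp3 overlapped between HDM and PBS in TG mice. The PBS-treated WT libraries are those with Rag1 and the high thymocyte sum, and the part of thymocytes in these ratios was not tested. The ratios are a description and were not tested.

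**Figure D5:**
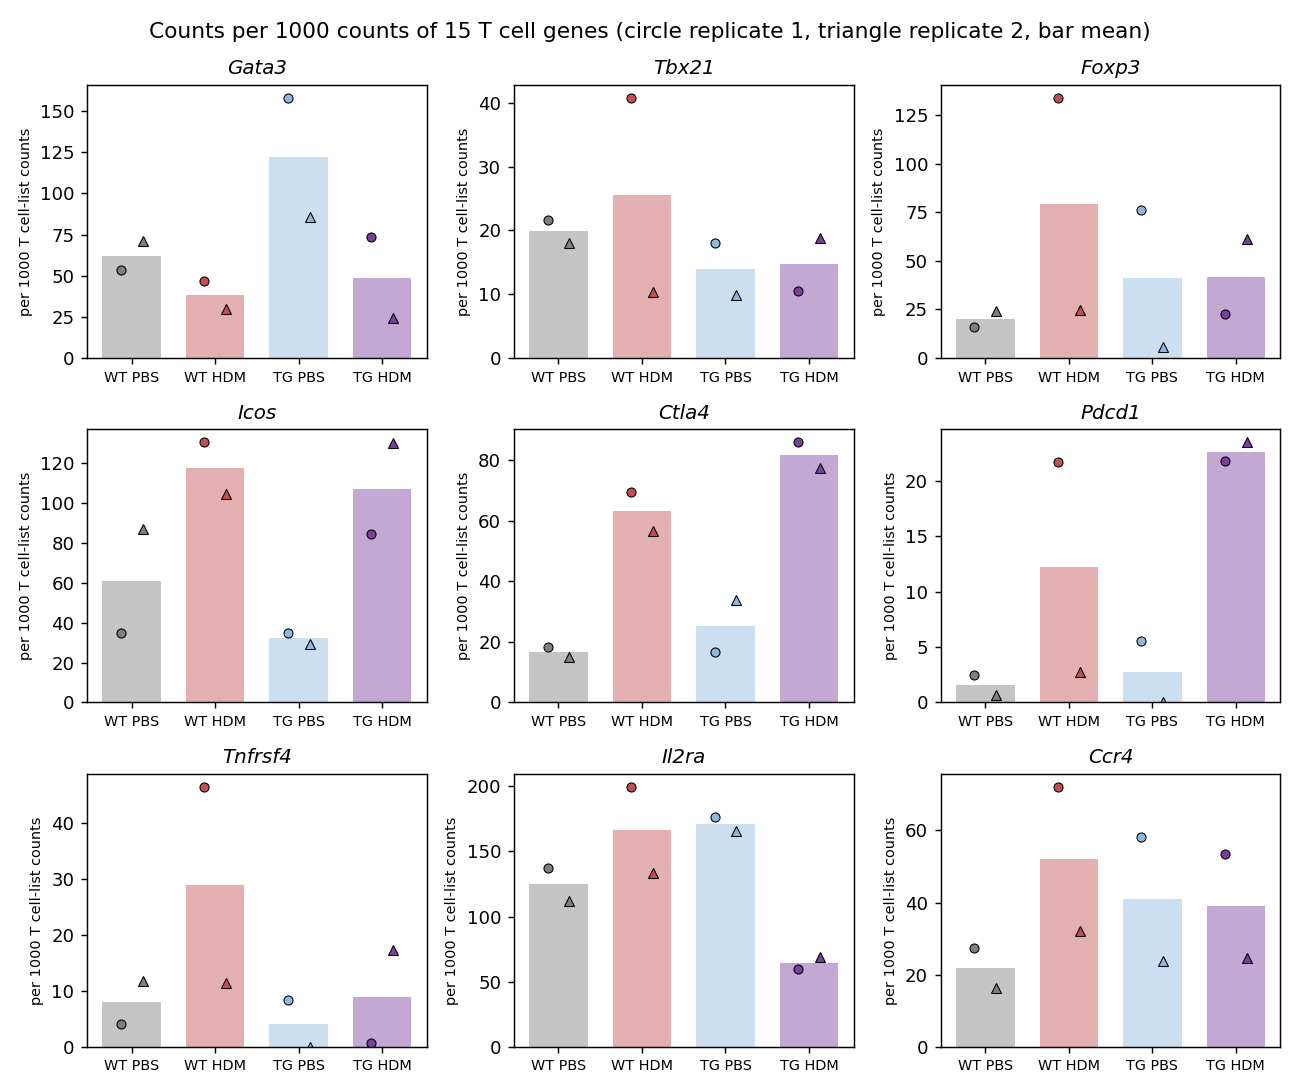
Counts of each of the 9 genes per 1000 counts of 15 T cell genes (y axis, linear, a scale of its own for each gene) in each library of the 4 groups (x axis), with circles for replicate 1, triangles for replicate 2 and bars for the mean. Ctla4 and Pdcd1 are higher in HDM-treated than in PBS-treated mice of the TG genotype, whereas Il2ra is lowest in HDM-treated TG mice.

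Of 13 other genes of T cell activation, all tested, 5 rose with HDM in WT mice (Il2rb, Cd44, Il2rg, Btla and Cd69) and 6 in TG mice (Btla, Cd69, Slamf1, Cd44, Il2rg and Tigit), and 0 fell in either, where 4.44% and 8.43% of all genes were called higher. Cd44, the adhesion receptor of antigen-experienced T cells that many other cells also carry, rose by 0.88 (SE 0.13, adjusted p = 0.000650) in WT mice and by 0.80 (SE 0.21, adjusted p = 0.0256) in TG mice by edgeR's quasi-likelihood test. Btla, an inhibitory receptor of T and B cells, rose by 1.11 (SE 0.28, adjusted p = 0.0312) and by 2.27 (SE 0.34, adjusted p = 0.00125). The calls of Btla in WT mice (adjusted p up to 0.202) and of Cd44 in TG mice (adjusted p up to 0.304) were lost without either PBS library, the former also with an offset for transcript length (adjusted p = 0.0561), and that of Btla in TG mice without replicate 2 of the PBS group (adjusted p = 0.0647). In WT mice 3 genes of the list were called without replicate 2 of the PBS group and 8 without replicate 1 of the HDM group. In TG mice 1 was called without either library of the PBS group.

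For the Th2, Th17 and Th1 programmes the shares over all genes, called in either direction, were 6.74% in WT mice and 13.8% in TG mice. Of 13 other genes of Th2 cells and group 2 innate lymphoid cells, 9 were tested. In WT mice 1 rose, Ccr8, a chemokine receptor of Th2 and regulatory T cells, from 1 and 1 counts to 75 and 30 counts. In TG mice 1 fell, Rora, a nuclear receptor needed by innate lymphoid cells and also expressed in other lung cells (-2.00, SE 0.41, adjusted p = 0.00779, edgeR). Both calls were lost when either of 2 libraries was left out (Ccr8 without WT PBS replicate 2 or WT HDM replicate 1, adjusted p up to 0.0893, and Rora without either TG PBS library, adjusted p up to 0.110). The cytokines Il4, Il5 and Il13, chosen after their values were seen, had few counts: Il5 had 0 to 10 in each library, Il13 had 28 and 9 counts in HDM-treated WT mice and 0 to 2 elsewhere, and Il4 had 8 and 48 counts in that group and 0 to 6 in the others. Of 10 Th17 genes, 0 of 7 tested were called in WT mice by edgeR (2 had an unadjusted p under 0.05, and DESeq2 called 1), and 2 of 6 rose in TG mice. These were Ccr6, a chemokine receptor of Th17 cells and B cells, by 5.15 (SE 0.79, adjusted p = 0.00153) and the cytokine Il21 by 4.08 (SE 1.20, adjusted p = 0.0427). Ccr6 had 2 and 6 counts in PBS-treated TG mice and 78 and 233 in HDM-treated TG mice. Il21 had 5 and 3, and 83 and 20, counts there. Both genes, like Ccr8 in WT mice, passed the filter on low counts only through HDM libraries and had to be higher there. The call of Il21 was lost without TG PBS replicate 1 or 2 or TG HDM replicate 1 (adjusted p up to 0.640) and with an offset for transcript length (adjusted p = 0.0608). Of 10 other Th1 and cytotoxic genes, 9 were tested with HDM, and 1 rose in WT mice, the chemokine receptor Cxcr3, by 3.92 (SE 0.70, adjusted p = 0.00327). Cxcr3 had 9 and 7 counts in PBS-treated WT mice and 138 and 101 in HDM-treated WT mice. In TG mice 1 rose, the chemokine Ccl5, by 1.90 (SE 0.39, adjusted p = 0.00729), a call lost without either PBS library (adjusted p up to 0.143) and with an offset for transcript length (0.89, adjusted p = 0.148).

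Other genes linked to regulatory T cells did not all go with Foxp3. Of 11 such genes, 1 of 10 tested rose with HDM in WT mice, and in TG mice 4 of 11 rose (Tnfrsf1b, Ikzf2, Il10 and Itgae) and 2 fell (Lrrc32 and Nrp1), where 6.74% and 13.8% of all genes were called in either direction. Il10 had 0 and 0 counts in PBS-treated TG mice and 12 and 32 in HDM-treated TG mice. It passed the filter on low counts only through HDM libraries and had to be higher there. Its call was lost with an offset for transcript length (adjusted p = 0.0697, edgeR). In TG mice 1 gene of the list, Tnfrsf1b, was called without replicate 1 of the PBS group and 0 without replicate 2. Ikzf2 (Helios), a factor of regulatory T cells, was at 14.1 and 10.04 CPM in PBS-treated WT mice, 52.1 and 22.7 CPM in HDM-treated WT mice, 7.48 and 9.83 CPM in PBS-treated TG mice, and 38.2 and 26.4 CPM in HDM-treated TG mice. It rose in both genotypes by edgeR, by 1.64 (SE 0.40, adjusted p = 0.0257) and 1.92 (SE 0.41, adjusted p = 0.00959), with every HDM library above every PBS library. As with Foxp3, replicate 1 of HDM-treated WT mice was the highest, and the call in WT mice was lost without it (0.91, adjusted p = 0.204) or without replicate 2 of the PBS group (1.40, adjusted p = 0.103). In TG mice the call was lost without either PBS library (adjusted p up to 0.120). Tnfrsf1b, the second receptor for tumour necrosis factor, rose in TG mice (2.13, SE 0.35, adjusted p = 0.00221), a call lost without replicate 2 of the PBS group (adjusted p = 0.0815). Lrrc32 (GARP), which is also expressed in endothelium and fell in TG mice (-1.46, SE 0.27, adjusted p = 0.00418), lost its call without either PBS library (adjusted p up to 0.0939). Over the 7 lists beside the 9 genes, the libraries labelled TG had 2 calls with PBS, Cd4 and Tnfrsf1b (-1.60, SE 0.30, adjusted p = 0.0116, edgeR), both lower, and 1 call with HDM, Ccl22, also lower. With PBS this was 1 of 14 T cell genes and 1 of 9 regulatory genes tested, and with HDM 1 of 7 ligands. The other lists in each comparison, with 7 to 14 genes tested, had 0 calls. Over all genes, 0.657% were called with PBS and 2.44% with HDM. Both calls with PBS were lost with the replicate number as a block.

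The 2 libraries of a pool were compared for these genes and for others of like abundance. The median size of the log2 difference between replicates over the 9 genes was 0.60 in PBS-treated WT mice, 1.08 in HDM-treated WT mice, 0.97 in PBS-treated TG mice and 0.54 in HDM-treated TG mice. For 6888 genes with 152 to 1507 counts in all, the range of the 9 genes, it was 0.50, 0.59, 0.60 and 0.63, lower than for the 9 genes in every group but HDM-treated TG mice. In HDM-treated WT mice replicate 1 was the higher for 9 of 9 genes, and in PBS-treated TG mice for 8 of 9, whereas it was the higher for 50.4% and 50.8% of the genes of like abundance. The 15 T cell genes did not share this lean, with replicate 1 the higher for 8 and 7 of 15. In the other 2 groups replicate 1 was the higher for 5 of the 9.

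By Pearson correlation of log2 CPM over the 8 libraries, the genes whose pattern was most like the mean of the 9, of 15859 others, were H13 (r = 0.985), Jpt2 (r = 0.980), Ska1 (r = 0.978), Cd3g (r = 0.976) and Eed (r = 0.974). For single genes the nearest were H2-K1, Psap and Mndal for Ctla4 (r = 0.986 to 0.989), Ccr1, Arg2 and Arhgdib for Icos (0.984 to 0.986), and Slc5a5, Arhgap19 and Sharpin for Ccr4 (0.971 to 0.988). For Foxp3 they were Lrrc59, P4hb and Dhx58 (0.961 to 0.971), for Pdcd1 Uchl3, Gm17019 and Sec23b (0.966 to 0.974), and for Tnfrsf4 Cd96, Ifih1 and Prex1 (0.952 to 0.961). For Gata3 they were Zc3h14, Stk35os1 and Atxn7l3b (0.958 to 0.965), for Il2ra F10, Parp8 and 3000002C10Rik (0.949 to 0.964), and for Tbx21 Ipo5, Bcs1l and Nup50 (0.945 to 0.956). The 8 points come from 4 pools and share the contrast of HDM with PBS, so that each r describes these libraries only.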

How the data were processed

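Total RNA from whole lung was pooled from the 4 mice of each group, amplified by single primer isothermal amplification and sequenced as 50-cycle single reads in 2 libraries per group. The authors aligned the reads to mm10 (the GRCm38 build) with TopHat and deposited raw counts of reads over the coding regions of each gene. Base calls were made with CASAVA 1.8, per the submitters' processing notes, and the strand setting and the TopHat version are not given in the sources used here. No normalization was applied to the deposited counts. Groups and replicate numbers were taken from the labels, and no column of the table was left unused (0 columns).

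From the counts, genes were compared with edgeR 4.0.16 (quasi-likelihood test, R 4.3.3) after TMM scaling and its low-count filter with a count minimum of 10. Each comparison of 2 groups was fitted on its own 4 libraries and the interaction on all 8. The threshold was an adjusted p of 0.05 (Benjamini-Hochberg, across every gene in the fit), and the steps were tested on simulated data. DESeq2 1.42.0 was an alternative. Since amplification yields copies without molecular identifiers, 1 count is not 1 molecule. The floor was 3 counts, equal to 0.232 to 0.449 CPM. Gene names were matched to RefSeq for 23372 of the 23469 identifiers, and coding and transcript lengths were taken from a GENCODE annotation of GRCm38. Log2 CPM for correlations used a prior count of 2.

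The genes described are the 9 genes themselves, and genes from 7 lists (T cell receptor and signalling, activation, Th2 and innate lymphoid, regulatory, Th17, Th1 and cytotoxic, ligands), with values for up to 4 called genes per comparison and for the partners of the 9. Other called genes are listed by name alone. The genes nearest in pattern were also named, 5 for the mean and 3 for each gene. The 9 genes and all lists were chosen with earlier results of these data known.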

Additional observations from a re-analysis of the deposited data

Results flagged for a closer look

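For 6 genes of the lists beside the 9 T cell genes, the difference between HDM and PBS differed between the genotypes in the test of the interaction itself (edgeR's quasi-likelihood test on all 8 libraries, Benjamini-Hochberg adjusted). None of the 9 genes was among them. Over all genes the share called was 1.76% of 15868. By list, the calls were 1 of 14 T cell genes tested, 1 of 11 regulatory genes and 1 of 10 Th1 and cytotoxic genes. Of 7 ligands tested, 1 was called higher and 2 lower. The lists of activation (13 tested), Th2 and innate lymphoid (10 tested) and Th17 genes (8 tested) had 0 calls. Ccl17, a ligand of Ccr4, had an interaction of -3.45 (SE 0.59, adjusted p = 0.00345) on the log2 scale, being higher with HDM in WT mice by 3.90 and in TG mice by 0.46. Ccl22, the other ligand of Ccr4, had an interaction of -2.74 (SE 0.55, adjusted p = 0.0119). Tnfrsf1b, a receptor for tumour necrosis factor, had an interaction of 2.49 (SE 0.41, adjusted p = 0.00284), with differences of -0.39 in WT mice and 2.13 in TG mice, and with levels of 63.0 and 67.6 CPM in PBS-treated WT mice against 28.3 and 15.003 CPM in PBS-treated TG mice. Cd28, the costimulatory receptor, had an interaction of 2.44 (SE 0.61, adjusted p = 0.0473), with differences of 0.05 in WT mice and 2.52 in TG mice. It was at 19.2 and 13.7 CPM in PBS-treated WT mice, the libraries with Rag1 and the high thymocyte sum. In PBS-treated TG mice it was at 3.99 and 7.82 CPM. The part of thymocytes in this was not tested. The call of Cd28 was lost without any single library other than replicate 2 of PBS-treated or of HDM-treated TG mice, with adjusted p-values up to 0.184. Ccl5, a chemokine of cytotoxic cells, had an interaction of 2.12 (SE 0.53, adjusted p = 0.0473), with differences of -0.24 in WT mice and 1.90 in TG mice, lost without any single library other than replicate 1 of HDM-treated TG mice (adjusted p up to 0.187). Cd274, a ligand of PD-1, had an interaction of 1.20 (SE 0.29, adjusted p = 0.0412). The calls of Ccl17 and Tnfrsf1b stood in all alternatives run, and those of Ccl5 and Cd274 were also lost with an offset for transcript length (adjusted p = 0.198 and 0.0525).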

How the results depend on the processing

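Of 278 values of the 9 genes under alternatives other than leaving out a library, 271 kept their direction and their side of the threshold, and of 200 values with 1 library left out 157 did. The precision was limited by 2 libraries per pool and by low counts, and with 1 library left out the lone library was assumed to vary like those of the other group. The cause of the changes given here was not tested.

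Of the 9 genes, those called with HDM numbered 1 in WT mice, but 2 with DESeq2, 3 with no filter on low counts and 0 to 6 with 1 library left out, and 3 in TG mice, with 1 to 2 when 1 library was left out. With HDM, 0 of them were called between the genotypes, with 0 to 1 when 1 library was left out. Over all genes, the 1020 calls with HDM in WT mice became 1588 with no filter and 652 to 1661 with 1 library left out, and the 2079 in TG mice became 277 to 2676. Between the genotypes with PBS, 98 calls became 223 with DESeq2, 306 with no filter and 75 to 432 with 1 library left out. With HDM, 370 calls became 890 with DESeq2, 1055 with no filter, 182 with an offset for transcript length, 771 with all 8 libraries in 1 fit and 6 to 1595 with 1 library left out. The 279 calls of the interaction became 680 with DESeq2, 675 with no filter and 138 to 721 with 1 library left out. The length offset moved the median of all genes by -0.103 in the HDM comparison of TG mice.

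With the replicate number as a block (replicate block), 45 genes were called between the genotypes with PBS and 625 with HDM, Foxp3 turned to -0.48 between the genotypes with PBS and to 0.028 in the interaction, and Cd4 and Tnfrsf1b lost their calls with PBS (adjusted p = 0.0956 and 0.0762). No call of the 9 genes changed under the block. The replicate numbers did not pair the libraries, since the deviations of same-numbered libraries correlated between -0.0214 and 0.0317 across 15868 genes.

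The log2 differences of some uncalled genes changed sign. Tnfrsf4 turned to -0.31 in the interaction with the length offset. With 1 library left out, the HDM difference in WT mice ranged from -0.51 to 0.094 for Gata3 and from -0.38 to 1.52 for Tbx21, and in TG mice from -0.87 to 1.00 for Gata3. Between the genotypes with PBS the ranges were -2.56 to 1.10 for Foxp3, -0.29 to 0.53 for Gata3, -0.59 to 0.63 for Ccr4 and -0.79 to 0.28 for Ctla4. With HDM they were -1.37 to 0.99 for Foxp3, -1.14 to 0.75 for Tbx21, -0.90 to 0.60 for Ccr4, -0.48 to 1.40 for Gata3 and -0.0088 to 0.32 for Icos. In the interaction they were -1.76 to 1.90 for Foxp3, -3.27 to 4.99 for Tnfrsf4, -0.010 to 5.23 for Pdcd1, -1.06 to 0.52 for Ccr4 and -0.68 to 1.17 for Gata3.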
